A study of Mus musculus with 20 samples.

Results

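The 10 genes described here are targets and partners of NRF2 in the defence against oxidants and in the supply of cystine and glutathione: Slc7a11, Nqo1, Gclc, Gclm, Hmox1, Srxn1, Txnrd1, Osgin1, Gsr and Nfe2l2. They were taken by symbol from a liver array table that measured 22180 genes, and all 10 were measured. Liver RNA came from 10 Bnc2 heterozygous mice and 10 WT littermates, all adult males on a C57BL/6 x CBA background, with 1 array per mouse. Every mouse of both genotypes had spent 7.5 weeks on the CDAA-HFSC diet, which lacks choline, supplies amino acids in place of protein, holds 21% fat, 2% cholesterol and 35% sucrose, and is used to provoke steatohepatitis. The heterozygous mice carry 1 gene trap allele of the Ayu21-18 line, in which a vector sits in an intron of Bnc2 in every cell of the animal. Mice without any intact Bnc2 allele do not survive the newborn period and form no group here. Livers of chow-fed mice are not analysed here, so each value below compares genotypes on the same diet and says nothing of the diet itself.

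NRF2, the protein of Nfe2l2, is a transcription factor that KEAP1 holds back by steering it to degradation. Oxidants and electrophiles disable KEAP1, and NRF2 then pairs with small MAF proteins at antioxidant response elements and raises genes for quinone reduction, glutathione synthesis and thioredoxin recycling. BACH1 competes for the same elements and represses Hmox1 above all. Because NRF2 activity is set largely by protein stability, the Nfe2l2 transcript need not follow it. Slc7a11 encodes the light chain of the cystine and glutamate exchanger xCT and is known as a target of both NRF2 and ATF4, the factor of the amino acid and endoplasmic reticulum stress response. Whether Slc7a11 varied with NRF2 targets or with Atf4 from mouse to mouse was therefore asked beside the comparison of genotypes.

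Array medians ran from 6.62 to 6.71 on the log2 scale, and any 2 arrays correlated at 0.987 to 0.994 over genes. Bnc2, the trapped gene, averaged 5.41 ± 0.13 in heterozygous livers and 5.37 ± 0.25 in WT livers (log2, SD, n = 10 each; limma p = 0.663), below the 95th percentile of olfactory receptor genes (6.99), which served as a measure of background. The array therefore gave no check of the genotype labels. Markers of stellate cells and fibroblasts averaged 11.5 in heterozygous livers (11.1 to 11.9) and 11.8 in WT livers (11.6 to 12.3), with 8 of 10 lower. Markers of macrophages averaged 12.2 in heterozygous livers (11.7 to 12.6) and 12.4 in WT livers (12.1 to 12.7), with 13 of 14 lower. At an unadjusted limma p under 0.05, 4 of the 10 stellate and fibroblast markers were lower. The same held for 2 of the 14 macrophage markers, and no marker of either list was higher. Of all genes, 3.63% were lower and 2.78% were higher at that level, and the median difference was 0.0027 on the log2 scale. No gene of the array, and so no marker of either list, passed the adjusted test. In whole liver, fewer cells of a type and less RNA per cell cannot be told apart, and the part of these shifts in the results below was not tested.

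The genotypes were compared with limma over all 22180 genes, and 0% passed at an adjusted p under 0.05. At an unadjusted p under 0.05, 3.63% of all genes were lower and 2.78% were higher in heterozygous livers. That balance depends on scaling, since 2.83% were lower and 3.77% higher with each array centred on its median, and 3.83% were lower and 3.53% higher after quantile normalization. Of the 10 members, none passed after adjustment, 2 were lower at that unadjusted level (Slc7a11 and Nqo1) and 1 was higher (Nfe2l2). The median difference of the members was 0.0051 on the log2 scale and that of all genes was 0.0027, with 5 members lower and 5 higher. The members thus did not share a direction, and the 2 lowest stood beside genes of glutathione synthesis that differed little.

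**Figure D1:**
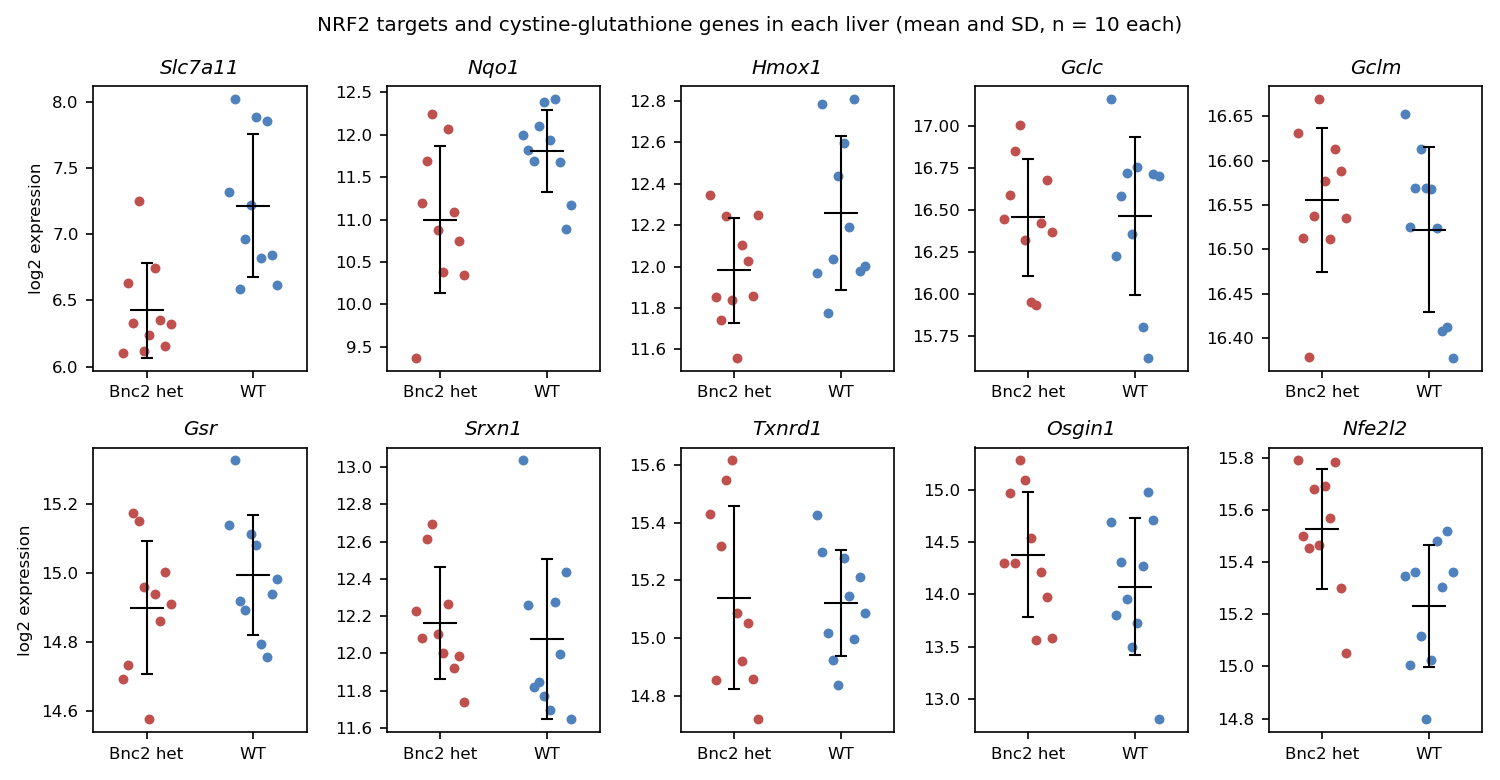
Log2 expression (y axes, each with its own range) of the 10 members in each liver, with Bnc2 heterozygous mice (red, left) and WT mice (blue, right); points are mice, horizontal bars are means and whiskers are SD (n = 10 each). In the Slc7a11 panel 7 heterozygous livers lie below all WT livers, whereas the Gclc and Gclm panels overlap throughout most of their range.

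Slc7a11, the cystine importer, ran from 6.10 to 7.25 with a median of 6.33 in heterozygous livers, against 6.59 to 8.02 with a median of 7.09 in WT livers. The groups overlapped, but 7 heterozygous livers lay below the lowest WT liver and 4 WT livers lay above the highest heterozygous one. The means were 6.42 ± 0.36 in heterozygous livers and 7.21 ± 0.54 in WT livers (log2, SD, n = 10 each). The difference was -0.79 with an SE of 0.19, a fold of 0.579 (95% interval 0.441 to 0.759; limma p = 0.000372, adjusted p = 0.446, permutation p = 0.00122). It ranked 14 among all genes by p. The signal was dim, since 9 heterozygous and 5 WT livers lay under the olfactory receptor percentile. The gene is the mean of 2 probe sets. The brighter one averaged 7.25 ± 0.63 in heterozygous livers and 8.31 ± 0.59 in WT livers, and alone it gave a fold of 0.481 (95% interval 0.337 to 0.688; limma p = 0.000329, adjusted p = 0.448). The other peaked at 6.01 in heterozygous livers and 6.91 in WT livers, under the background percentile in all 20 livers, so the mean of both dilutes the fold. The correlations across mice below also use the mean, and with the brighter probe set alone r was 0.617 with Hmox1, 0.474 with Nqo1, 0.056 with Atf4 and 0.859 with Clec4e.

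Slc3a2, the heavy chain that carries xCT to the membrane, did not share the lower level. It averaged 13.1 ± 0.44 in heterozygous livers and 13.1 ± 0.29 in WT livers, a fold of 1.01 (95% interval 0.804 to 1.26; limma adjusted p = 0.998).

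The letters upstream of Slc7a11 are shown because both regulators are known to act through short elements of this kind. RefSeq windows of 250 bases before to 50 bases after a start (build GRCm38.p6) were at hand for 7 members, with 3 windows for Txnrd1, and for Atf4. Gclc, Hmox1 and Gsr had none here. The searched letters were TGACNNNGC, the core of the antioxidant response element, and TGATGNAA, the amino acid response element read by ATF4, each on both strands. Among 32851 windows of this length, 12.39% held the first motif and 3.969% held the second. In the Slc7a11 window the amino acid response element occurred at 2 places on opposite strands, 66 to 59 and 47 to 40 bases before the start, 11 bases apart, and the antioxidant core did not occur. Capitals mark these places in the 160 bases before the start (chr3:50443614-50443773, minus strand).
Slc7a11: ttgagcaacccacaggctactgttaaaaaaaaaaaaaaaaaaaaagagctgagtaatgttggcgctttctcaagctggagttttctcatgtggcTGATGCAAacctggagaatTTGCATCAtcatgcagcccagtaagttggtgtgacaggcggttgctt

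The antioxidant core occurred in a window of 4 members, among them Gclm, Txnrd1 and Nfe2l2 before the start, each in 1 copy. It is set in capitals in stretches of 60 bases from chr3:122245398-122245457 (plus strand), chr10:82859089-82859148 (plus strand) and chr2:75704854-75704913 (minus strand).
Gclm: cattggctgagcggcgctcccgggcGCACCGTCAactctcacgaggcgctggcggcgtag
Txnrd1: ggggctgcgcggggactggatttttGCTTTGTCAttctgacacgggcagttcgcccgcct
Nfe2l2: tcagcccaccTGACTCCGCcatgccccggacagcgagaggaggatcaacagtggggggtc
In Gclm and Txnrd1 the capitals show the core on the opposite strand. The fourth member was Srxn1, where the match lies after the start. These windows are short, and a match is a description of letters only.

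Nqo1 encodes the quinone reductase that is a textbook reporter of NRF2 activity in liver. It ran from 9.37 to 12.2 with a median of 10.98 in heterozygous livers, against 10.9 to 12.4 with a median of 11.9 in WT livers. The difference was -0.81 with an SE of 0.29, a fold of 0.570 (95% interval 0.379 to 0.859; limma p = 0.0094, adjusted p = 0.627, permutation p = 0.0175). The heterozygous livers were spread more widely, with an SD of 0.87 in heterozygous livers and 0.49 in WT livers. Of the heterozygous livers 5 lay below the lowest WT liver, while others reached the WT range.

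Hmox1 encodes heme oxygenase 1, which degrades heme and is abundant in Kupffer cells. It ran from 11.6 to 12.3 with a median of 11.9 in heterozygous livers, against 11.8 to 12.8 with a median of 12.1 in WT livers. The difference of -0.28 had an SE of 0.13, a fold of 0.826 (95% interval 0.681 to 1.00; limma p = 0.0515, adjusted p = 0.776), and 9 of 10 heterozygous livers lay below the WT mean. Bach1, its repressor, averaged 10.5 ± 0.32 in heterozygous livers and 10.7 ± 0.19 in WT livers, a fold of 0.844 (limma p = 0.0415, adjusted p = 0.761).

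Glutathione synthesis begins with glutamate-cysteine ligase, formed by the catalytic subunit Gclc and the modifier subunit Gclm. Gclc ran from 15.9 to 17.0 in heterozygous livers, with a median of 16.4, and from 15.6 to 17.2 in WT livers, with a median of 16.6. The fold was 0.995 with a 95% interval of 0.778 to 1.27 (limma adjusted p = 0.998). Gclm ran from 16.4 to 16.7 in heterozygous livers and from 16.4 to 16.7 in WT livers, a fold of 1.02 (95% interval 0.947 to 1.11; limma adjusted p = 0.965). The 95% interval for Gclm was narrow, at 0.947 to 1.11 fold, whereas that for Gclc was wider. Gsr, the reductase that returns oxidised glutathione to its reduced form, averaged 14.9 ± 0.19 in heterozygous livers and 15.0 ± 0.17 in WT livers, a fold of 0.937 (95% interval 0.830 to 1.06; limma adjusted p = 0.917).

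The thioredoxin branch overlapped between genotypes. Txnrd1, which reduces thioredoxin in the cytosol, averaged 15.1 ± 0.32 in heterozygous livers and 15.1 ± 0.18 in WT livers, a fold of 1.01 (95% interval 0.862 to 1.19). Srxn1, which repairs overoxidised peroxiredoxins, averaged 12.2 ± 0.30 in heterozygous livers and 12.1 ± 0.43 in WT livers, a fold of 1.06 (95% interval 0.850 to 1.33). Osgin1, an oxidative stress-induced growth inhibitor, averaged 14.4 ± 0.60 in heterozygous livers and 14.1 ± 0.65 in WT livers, a fold of 1.24 with a wide 95% interval of 0.857 to 1.78. The limma adjusted p of these 3 genes lay between 0.907 and 0.992.

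Nfe2l2 itself stood on the other side. It ran from 15.0 to 15.8 with a median of 15.5 in heterozygous livers, against 14.8 to 15.5 with a median of 15.3 in WT livers. The difference was 0.30 with an SE of 0.10, a fold of 1.23 (95% interval 1.06 to 1.42; limma p = 0.00825, adjusted p = 0.627, permutation p = 0.0112). The ranges overlapped, and 9 of 10 heterozygous livers lay above the WT mean. Across mice Nfe2l2 correlated at 0.534 with the spread of values on the array, as a description over 20 mice with genotype means removed, and the part of that spread in the difference was not tested. Keap1 averaged 7.50 ± 0.20 in heterozygous livers and 7.48 ± 0.19 in WT livers, a fold of 1.01 (limma adjusted p = 0.991). Atf4 averaged 11.5 ± 0.24 in heterozygous livers and 11.3 ± 0.28 in WT livers, a fold of 1.13 (95% interval 0.961 to 1.33; limma p = 0.133, adjusted p = 0.854).

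**Figure D2:**
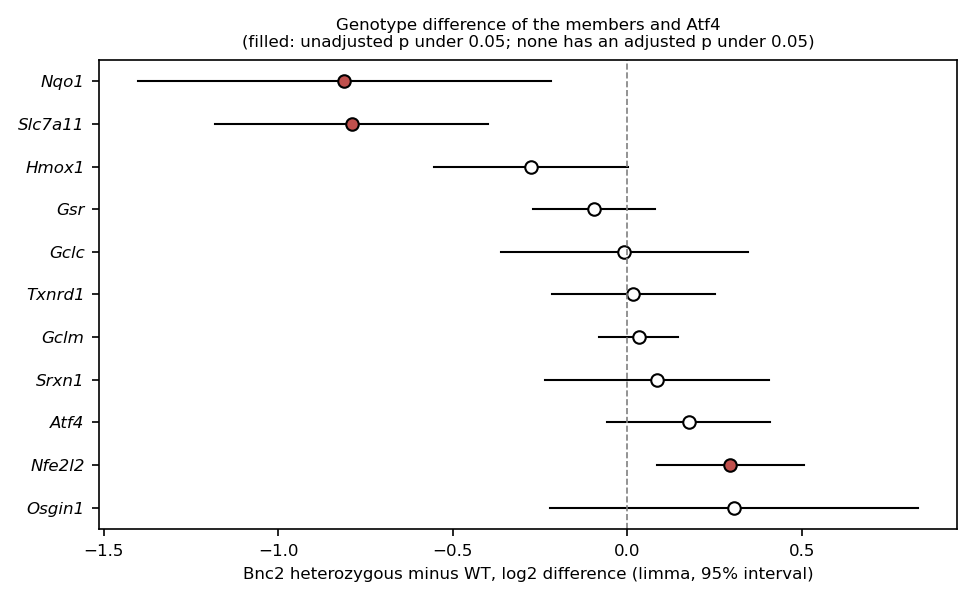
Heterozygous minus WT difference on the log2 scale (x axis) for the 10 members and Atf4 (y axis), from limma; circles are estimates, lines are 95% intervals, and red circles have an unadjusted p under 0.05. Nqo1 at -0.81 and Slc7a11 at -0.79 lie to the left of 0 and Nfe2l2 at 0.30 to the right, while the lines of the others reach or cross 0.

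Further genes of the same pathways are set beside all genes, of which 3.63% were lower and 2.78% higher at the unadjusted level. Of 28 measured NRF2 targets outside the members, 2 were lower and none was higher at an unadjusted p under 0.05, and the median difference was -0.02. The 2 were Abcc1, an exporter of glutathione conjugates, at a fold of 0.833 (limma p = 0.00351, adjusted p = 0.519), and Blvrb, a biliverdin reductase, at a fold of 0.816 (limma p = 0.033, adjusted p = 0.727). Of 15 measured regulators of NRF2, Bach1 was the only one past that level. Of 33 measured genes of cystine and glutathione metabolism, 24 had a lower mean and the median was -0.05, beside 0.0027 for all genes. At the unadjusted level Gpx4 and Anpep were lower and Lap3 was higher. Gpx4, the glutathione peroxidase that clears lipid hydroperoxides, averaged 9.33 ± 0.11 in heterozygous livers and 9.49 ± 0.13 in WT livers, a fold of 0.898 (limma p = 0.0222, adjusted p = 0.675). Anpep, an aminopeptidase that cleaves cysteinylglycine, had a fold of 0.907 (limma p = 0.048, adjusted p = 0.775), and Lap3, a leucine aminopeptidase, had a fold of 1.14 (limma p = 0.0203, adjusted p = 0.674).

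Of 15 measured genes of the thioredoxin and peroxiredoxin system, 1 was lower and 1 was higher at the unadjusted level, beside 3.63% and 2.78% of all genes. Txnip, which binds thioredoxin and restrains glucose uptake, averaged 14.5 ± 0.46 in heterozygous livers and 15.1 ± 0.40 in WT livers, a fold of 0.653 (limma p = 0.00234, adjusted p = 0.509). Msrb2, a mitochondrial methionine sulfoxide reductase, had a fold of 1.16 (limma p = 0.011, adjusted p = 0.627). Of 31 measured ATF4 targets, none was lower and 1 was higher, Nars, an asparaginyl-tRNA synthetase, at a fold of 1.16 (limma p = 0.0267, adjusted p = 0.707). Of 15 measured ferroptosis genes, Gpx4 alone passed the unadjusted level.

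From mouse to mouse, with the genotype means removed, Slc7a11 varied most closely with Hmox1 among the members. Pearson's r was 0.714 over 20 mice (permutation p = 0.00162, adjusted over 10 relations 0.0162) and Spearman's rho was 0.573 (permutation p = 0.0174, adjusted 0.131). Without the 2 mice farthest from the median of Hmox1, r was 0.550 (permutation p = 0.0226), which no longer passed after adjustment (adjusted p = 0.226). The call was also lost without WT mouse 2 alone (0.652, adjusted p = 0.0525, permutation). Without the 4 arrays of smallest spread r stayed at 0.715, but with fewer mice the adjusted p was 0.0575 (permutation). The adjusted call therefore depended on which mice entered. Within genotypes r was 0.318 in heterozygous mice and 0.895 in WT mice (n = 10 each), and the difference between genotypes was not tested.

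Slc7a11 and Nqo1 correlated at 0.461 (permutation p = 0.0239, adjusted 0.119; rho 0.481, permutation p = 0.0262, adjusted 0.131). Within genotypes r was 0.770 in heterozygous mice (adjusted p = 0.084, permutation) and 0.218 in WT mice. Without the 2 heterozygous mice farthest from the median of Nqo1, r was 0.306 (permutation p = 0.196). It was 0.329 without heterozygous mouse 4 alone and 0.447 without heterozygous mouse 1 alone, so the lower value came mostly with mouse 4. Gsr followed at 0.407 (adjusted p = 0.255, permutation; rho 0.432, adjusted 0.215). The other members gave r of -0.243 for Nfe2l2, -0.065 for Gclm, -0.061 for Gclc, 0.177 for Txnrd1, 0.214 for Osgin1 and 0.247 for Srxn1, with permutation p adjusted to 0.598 or above. Their rho ran from -0.367 to 0.223, with permutation p adjusted to 0.303 or above.

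Slc7a11 and Atf4 gave an r of 0.064 (permutation p = 0.80, adjusted 0.819) and a rho of 0.054 (permutation p = 0.83, adjusted 0.921). Within genotypes r was 0.443 in heterozygous mice and -0.151 in WT mice. The 95% interval of the pooled r, -0.402 to 0.503, does not exclude a moderate relation. The mean of the 8 NRF2 targets among the members (all but Slc7a11 and Nfe2l2) correlated with Slc7a11 at 0.542 (95% interval 0.117 to 0.80), given as a description with no p. The difference of that r from the r with Atf4 was 0.479, with a 95% interval of 0.052 to 0.878. The interval reached below 0 when heterozygous mouse 4 was left out (0.364), or WT mouse 2 (0.346), 3 (0.402) or 7 (0.422). It also did when the targets were scaled to equal spread (0.450), without Hmox1 (0.337), without Nqo1 (0.358) and in heterozygous mice alone (0.257). The mean of the targets and Atf4 themselves correlated at 0.526. A mean of 8 target transcripts and the transcript of a single factor are unlike measures, so the difference does not compare NRF2 activity with ATF4 activity. Of single members, Hmox1 alone had a difference from Atf4 whose interval lay above 0 (0.651, 95% interval 0.043 to 1.18). Hmox1 was also the member with the highest r with Slc7a11, which this interval does not allow for.

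**Figure D3:**
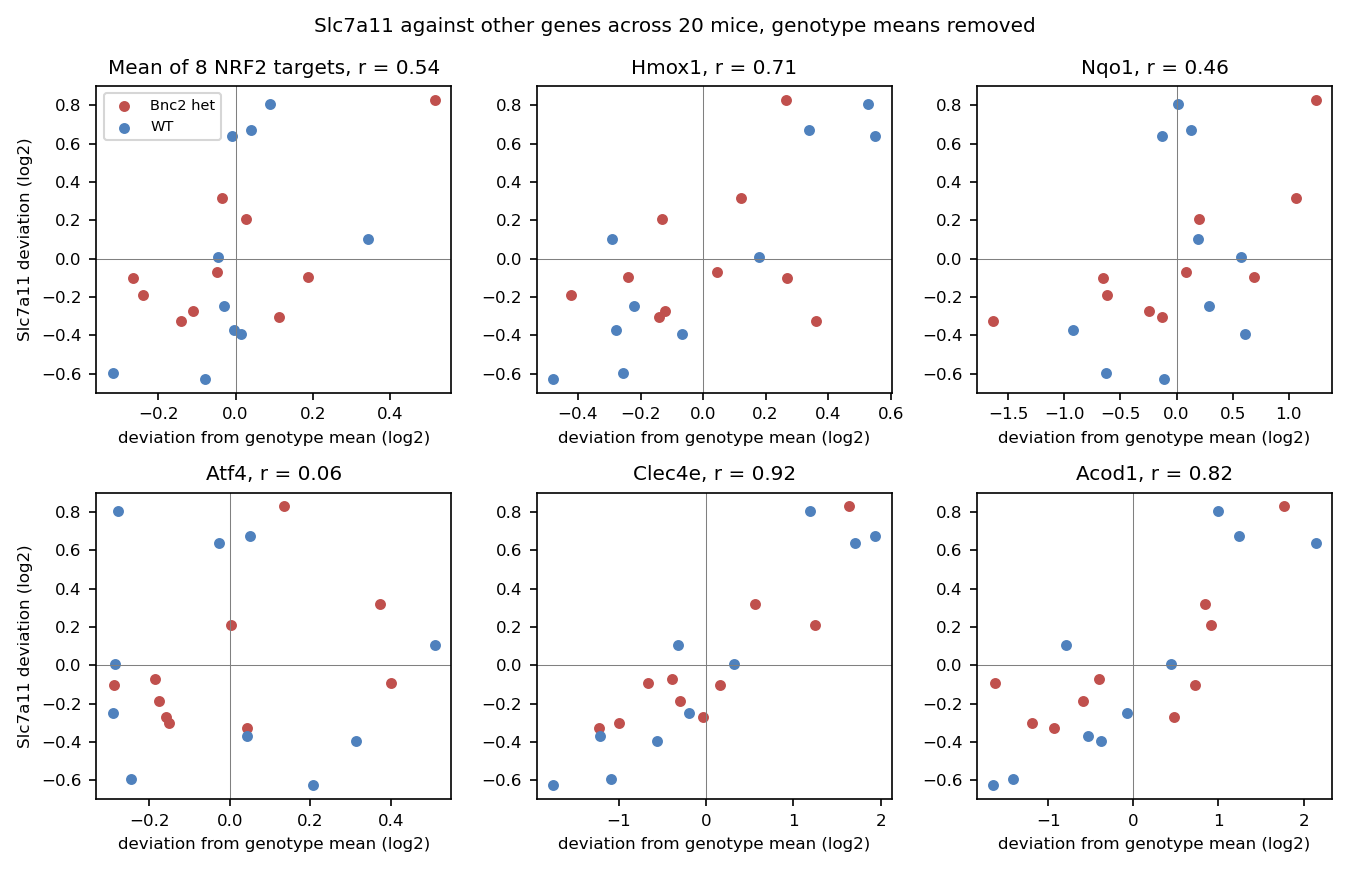
Deviation of Slc7a11 from its genotype mean (y axes, log2) against the deviation of the mean of 8 NRF2 targets, Hmox1, Nqo1, Atf4, Clec4e and Acod1 (x axes, log2) in 20 mice, Bnc2 heterozygous in red and WT in blue. The points follow a line most closely for Clec4e (r = 0.92), less so for Hmox1 (0.71), and scatter without direction for Atf4 (0.06).

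Most pairs of the 8 targets were loosely related. Among their 28 pairs the median r was 0.109, the range was -0.324 to 0.597, and 3 pairs exceeded 0.5. Among the 45 pairs of all 10 members the median r was 0.122, the range was -0.441 to 0.714, and 4 pairs exceeded 0.5. Srxn1 correlated at 0.597 with Txnrd1 and 0.538 with Osgin1, and Gsr correlated at 0.516 with Gclc. Nqo1 and Hmox1, the 2 members with the highest r with Slc7a11, correlated with each other at 0.051. Srxn1 correlated at 0.707 with Atf4.

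**Figure D4:**
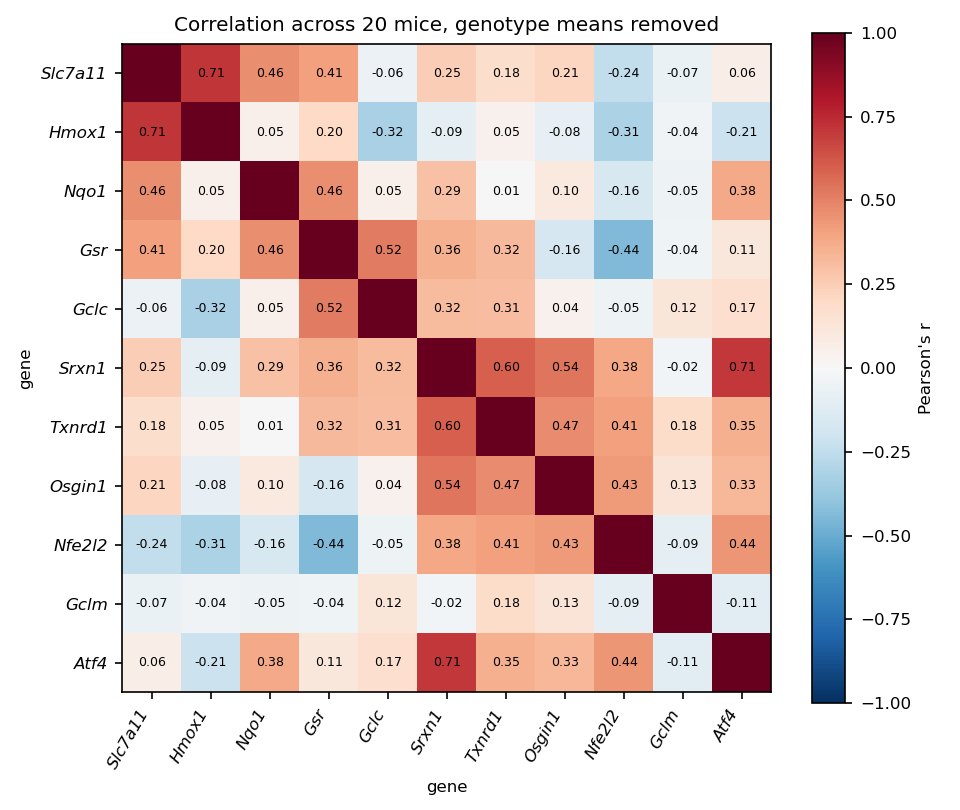
Pearson's r between each pair of the 10 members and Atf4 (both axes) over 20 mice with genotype means removed; red is positive and blue is negative. Slc7a11 with Hmox1 (0.71) and Srxn1 with Atf4 (0.71) are the highest values, and Nfe2l2 with Gsr (-0.44) is the lowest.

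Target genes outside the members gave a second way to place each gene. Each member and Atf4 was set against the mean of 28 other NRF2 targets and the mean of 31 ATF4 targets, 22 relations in all, chosen after the data were seen. Nqo1 correlated with the other NRF2 targets at 0.733 (permutation p = 0.0002, adjusted 0.00396; rho 0.672, permutation p = 0.00157, adjusted 0.0115), and at 0.658 without the 2 mice farthest from the median of that mean. Within genotypes it was 0.820 in heterozygous mice and 0.668 in WT mice. Atf4 correlated with the ATF4 targets at 0.735 (permutation p = 0.00055, adjusted 0.00403; rho 0.783, permutation p = 0.00021, adjusted 0.00231), and at 0.791 without 2 mice. Srxn1 correlated with the ATF4 targets at 0.742 (permutation p = 0.00036, adjusted 0.00396; rho 0.811, permutation p = 5e-05, adjusted 0.0011), and at 0.839 without 2 mice.

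Slc7a11 passed the test with neither mean. It correlated at 0.188 with the other NRF2 targets (permutation p = 0.447, adjusted 0.702; rho 0.195, adjusted 0.729) and at 0.066 with the ATF4 targets (permutation p = 0.79, adjusted 0.869; rho 0.138, adjusted 0.789). The genotypes differed in sign for both means, as a description. With the other NRF2 targets r was 0.637 in heterozygous mice and -0.098 in WT mice, and with the ATF4 targets it was 0.446 in heterozygous mice and -0.160 in WT mice (n = 10 each), and the difference between genotypes was not tested. The difference between these 2 correlations was 0.121 with a 95% interval of -0.380 to 0.598. Nqo1 stood above Slc7a11 in its correlation with the other NRF2 targets by 0.545 (95% interval 0.147 to 0.984). Atf4 stood above Slc7a11 in its correlation with the ATF4 targets by 0.669 (95% interval 0.140 to 1.15). Nqo1 had the highest r with the other NRF2 targets and Atf4 nearly the highest with the ATF4 targets, which these intervals do not allow for. The r of Slc7a11 with Hmox1 exceeded its r with the other NRF2 targets by 0.527 (95% interval -0.039 to 1.06). Hmox1, the closest member to Slc7a11, correlated at -0.127 with the other NRF2 targets (permutation p = 0.608, adjusted 0.787; rho -0.122, adjusted 0.805). The mean of the 33 cystine and glutathione genes correlated with Slc7a11 at 0.432 (0.464 in heterozygous mice and 0.483 in WT mice). The mean of the ferroptosis genes gave 0.545, the NRF2 regulators 0.162 and the thioredoxin and peroxiredoxin genes -0.249. These list means are descriptions with no test.

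**Figure D5:**
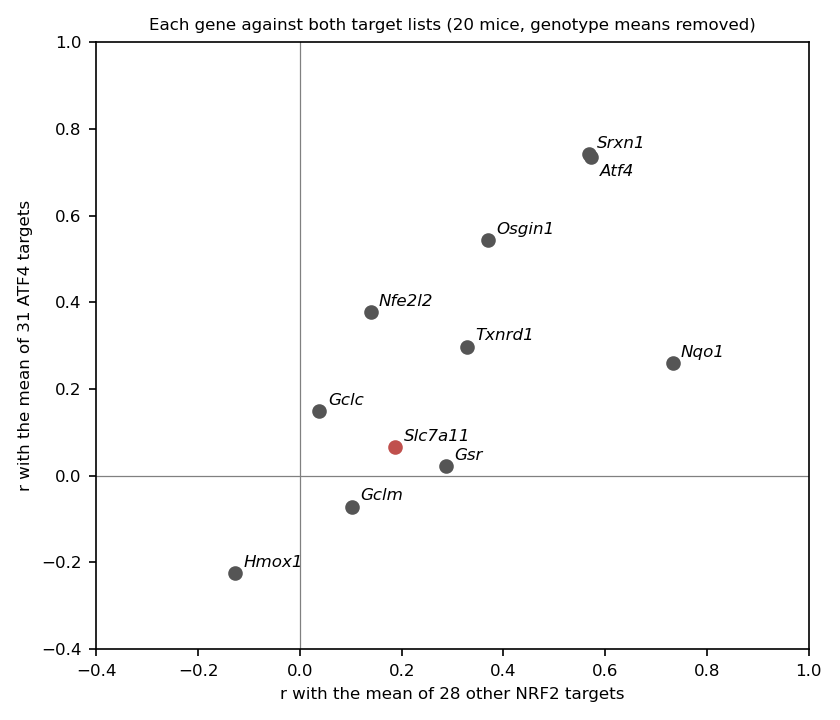
Pearson's r of each member and Atf4 with the mean of 28 other NRF2 targets (x axis) and with the mean of 31 ATF4 targets (y axis), over 20 mice with genotype means removed. Nqo1 lies far to the right (0.733), Atf4 and Srxn1 lie at the top (0.735 and 0.742), and Slc7a11 (red) lies near the origin beside Gsr and Gclc.

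The genes whose pattern was most like that of Slc7a11 were neither NRF2 nor ATF4 targets of the lists. Among 11089 genes at or above the median level, ranked by r over 20 mice with genotype means removed, the first 10 were Clec4e (0.920), Olr1 (0.908), Saa2 (0.861), Plac8 (0.847), Ccrl2 (0.846), Procr (0.844), Orm2 (0.834), Acod1 (0.823), Sbno2 (0.823) and Hp (0.820). Clec4e is a pattern receptor of myeloid cells, Olr1 takes up oxidised low density lipoprotein, and Acod1 makes itaconate in activated macrophages. Saa2, Orm2 and Hp are acute-phase proteins secreted by hepatocytes. After quantile normalization the r of these 10 genes ran from 0.663 (Hp) to 0.906 (Clec4e). With the brighter Slc7a11 probe set alone it ran from 0.622 (Hp) to 0.891 (Sbno2). As the 10 genes were chosen for their r with Slc7a11, the values are a description with no test. Over all genes the r with Slc7a11 had a median of -0.015, and 0.430 was the 95th percentile.

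Clec4e ran from 7.89 to 10.8 in heterozygous livers and from 8.63 to 12.3 in WT livers, a fold of 0.415 (limma p = 0.00955, adjusted p = 0.627). Acod1 ran from 5.59 to 8.99 in heterozygous livers and from 7.04 to 10.8 in WT livers, a fold of 0.363 (limma p = 0.00463, adjusted p = 0.552). All 10 of these genes had a lower mean in heterozygous livers. At the unadjusted level 6 of them passed (Clec4e, Olr1, Plac8, Ccrl2, Procr and Acod1), and none passed the adjusted one. Of all genes at or above the median level, 4.92% were lower at the unadjusted level. The 10 genes were chosen to vary with Slc7a11 in these same mice, and Slc7a11 was itself lower. They are therefore not 10 separate observations.

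Hmox1 correlated with these 10 genes at 0.480 to 0.741 (median 0.644), Nqo1 at 0.183 to 0.516 (median 0.391) and Atf4 at -0.180 to 0.200 (median -0.045). As these 10 genes were chosen for their r with Slc7a11, the values in part restate the r of each gene with Slc7a11. The order of Hmox1 and Nqo1 turned with genotype, which was not tested. Hmox1 gave -0.314 to 0.414 in heterozygous mice and 0.814 to 0.949 in WT mice, whereas Nqo1 gave 0.308 to 0.865 in heterozygous mice and 0.0056 to 0.334 in WT mice. Slc7a11 itself gave 0.582 to 0.919 in heterozygous mice and 0.881 to 0.962 in WT mice.

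Of the marker lists of cell types, the mean of 5 cholangiocyte markers had the r with Slc7a11 farthest from 0, at -0.589 over 20 mice (-0.533 in heterozygous mice and -0.621 in WT mice), and 3 of the 5 lay under the olfactory receptor percentile. The mean of the hepatocyte markers gave 0.365 (0.790 in heterozygous mice and 0.122 in WT mice). That of the endothelial markers gave 0.348 (0.469 in heterozygous mice and 0.293 in WT mice). That of the neutrophil markers gave 0.313 (-0.134 in heterozygous mice and 0.829 in WT mice), but 5 of these 6 markers lay under the olfactory receptor percentile. The macrophage markers gave 0.119 and the stellate and fibroblast markers -0.029. These are descriptions with no test. The part of the inflammatory genes in the genotype difference of Slc7a11 was not tested.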

How the data were processed

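Total RNA of 20 livers was hybridised to mouse gene arrays (MoGene 2.0). The table deposited by the authors holds log2 values. Per the methods, the authors summarised core genes with Affymetrix Power Tools inside the GIANT suite by GC correction, intensity scaling and robust multi-array averaging, which can compress differences of dim genes. The version of Affymetrix Power Tools, and the genome build and annotation release of the mouse values, are not given in the sources used here. The number of arrays limits the precision.

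Of 41345 probe sets, 23521 named 1 gene. These were averaged per symbol into 22180 genes, and 1082 genes had several probe sets. Genotypes were compared as heterozygous minus WT with limma 3.58.1 in R 4.3.3, without covariates, with Benjamini-Hochberg adjustment over all genes. Permutation tests were two-sided with 100000 resamples, and for correlations they ran within genotype on deviations from genotype means. The interval of a difference between correlations follows Zou. The replicates are separate mice, and their shared numbers did not pair them.

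The members, lists and tests were chosen with earlier results of these data known. Named genes were the members, Atf4, Bnc2, Slc3a2, Keap1 and Bach1, up to 6 members of each pathway list at an unadjusted p under 0.05, and the 10 genes nearest to Slc7a11 by r. Alternatives were quantile normalization, centring, a filter on dim genes, the brightest probe set, another prior, array weights, a replicate block, a principal component as covariate, Spearman's rho and leaving out arrays. Leaving out the 4 arrays of smallest spread, a score without Nqo1, the brighter Slc7a11 probe set alone and the means of target lists were added after the data were seen. The limma and correlation code was tested on simulated data.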

Additional observations from a re-analysis of the deposited data

Results flagged for a closer look

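Of 54 groups of 10 mice (27 genes in both genotypes), 2 held a mouse whose gap to its nearest neighbour exceeded Dixon's 95% critical share of the range of the group, which chance gives in about 1 in 20 groups. Gpx4 had a value of 9.07 in heterozygous mouse 1, where the mean of the heterozygous livers was 9.33. Marco, a macrophage scavenger receptor, had a value of 11.1 in heterozygous mouse 10, where the mean of the heterozygous livers was 7.68.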

How the results depend on the processing

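No gene passed an adjusted p of 0.05 under any alternative except with the first residual principal component as a covariate, which gave 1, the bile acid transporter Slc10a2, named after its value was seen. The genotype differences of Slc7a11 (-0.88 to -0.70 with single mice left out), Nqo1 (-0.95 to -0.63), Hmox1 (-0.33 to -0.21) and Nfe2l2 (0.25 to 0.35) kept their sign under every alternative run, with adjusted p of 0.248 or above. Centring the arrays turned the split of all genes at the unadjusted level to 627 lower and 836 higher, against 806 lower and 616 higher as deposited, and among the 11090 genes at or above the median level 546 (4.92%) were lower and 363 (3.27%) were higher. With the replicate number as a block, 833 genes were lower, 619 were higher and 0 passed. The numbers did not pair the mice, since r between same-numbered mice ran from -0.172 to 0.166 and 2 mice correlated best with their own number. Values near 0 changed sign. Gclc was 0.0094 after centring, 0.044 without the 4 arrays of smallest spread and -0.102 to 0.070 with single mice left out, and Txnrd1 was -0.035 to 0.065 with single mice left out.

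The r of Slc7a11 with Hmox1 lost its adjusted call in heterozygous mice alone (0.318), with Spearman's rho (0.573), without the 2 farthest mice (0.550), without the 4 arrays of smallest spread (0.715, adjusted p = 0.0575) and without WT mouse 2 (0.652, adjusted p = 0.0525), the lowest of 0.652 to 0.809 with single mice left out. With genotype means left in, the genotype difference itself enters r. In that setting r with Nqo1 was 0.641 and passed (adjusted p = 0.0132, permutation), r with Atf4 was -0.181 and r with Osgin1 was -0.014. With single mice left out, r with Nqo1 was 0.329 to 0.532, passing only without WT mouse 7 (adjusted p = 0.0432). Gsr was 0.261 to 0.584, passing only without WT mouse 8 (adjusted p = 0.0422). Atf4 was -0.012 to 0.206, Gclc -0.249 to 0.143 and Gclm -0.230 to 0.053. The r with Atf4 was -0.151 in WT mice alone and -0.027 without the 4 arrays of smallest spread. In heterozygous mice alone r was 0.331 with Gclc and 0.183 with Nfe2l2, and in WT mice alone it was 0.106 with Gclm. Gclc gave 0.036 by rho and 0.047 with the brighter Slc7a11 probe set alone, and without the 2 farthest mice Gclc gave 0.053 and Osgin1 -0.061. The difference between the correlations with the 8 targets and with Atf4 was 0.731 with genotype means left in, 0.257 in heterozygous mice alone and 0.346 to 0.556 with single mice left out. The cause of the other changes was not tested. Slc7a11 lay near background on many arrays, which limits its precision.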
